A study of Mus musculus with 6 samples.

Results

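Expression of 9 genes that mark naive and memory T cells was examined in mouse CD4 T cells differentiated in culture towards regulatory T (Treg) cells, a CD4 T cell lineage that holds immune responses in check. The genes were chosen by name, for their role in T cell biology, but with earlier results of these data known. They were the transcription factors Tcf7, Lef1, Bach2, Satb1 and Klf2, the migration receptors Ccr7 and S1pr1, and the naive-cell genes Igfbp4 and Dapl1. All 9 were among the 24493 gene symbols measured, and 8 were among the 12141 that could be tested, because Klf2 lay under the expression filter. The cells came from 2 genotypes with 3 libraries each, wild-type (WT) and Ifnar1-SA. The product of Ifnar1 is one subunit of the receptor for type I interferons, and in published work SA denotes a knock-in in which alanine replaces a serine of the receptor's degron, so that the receptor resists degradation. The starting cells of both genotypes were naive CD4 T cells of the spleen, while age, sex and culture conditions are not stated by the labels. Whether each library stands for its own animal or culture is likewise not stated. The Y-linked Eif2s3y was at 17.0 and 16.8 TPM in WT 1 and WT 2 but at 0 in WT 3. WT 3 was thus no technical repeat of the other WT libraries. The p-values measure the spread between these libraries only, which may otherwise be technical in part.

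A naive T cell that has not met its antigen circulates between blood and lymph nodes. TCF-1 (the product of Tcf7), LEF-1, BACH2 and SATB1 hold the naive or memory state and restrain effector genes, while KLF2 switches on the receptors that guide circulation. CCR7 brings T cells into lymph nodes along its chemokine ligands, and the sphingosine-1-phosphate receptor S1PR1 lets them leave. Activation through the T cell receptor lowers this programme in most responding cells, and memory cells regain much of it.

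Levels are TPM, a relative unit in which each gene's reads are divided by transcript length and every library totals 1e+06, so levels of different genes can be set side by side. By mean TPM over the 6 libraries the order was Ccr7 (153), Satb1 (67), Lef1 (41.5), S1pr1 (24), Igfbp4 (18.4), Tcf7 (11.1), Dapl1 (7.61), Bach2 (6.52) and Klf2 (0.382). The ranges of neighbours in this order overlapped, except that every Klf2 value lay below every Bach2 value. The mean level was lower in Ifnar1-SA than in WT for all 9 genes, of which Satb1 and S1pr1 were higher once the libraries were rescaled by median-of-ratios or TMM (trimmed mean of M-values) factors. A lower mean was also found for 62.9% of the genes tested, and for 42.5%, 35.2% and 49.3% after median-of-ratios, TMM and quantile scaling. The median log2 difference, Ifnar1-SA minus WT, was −0.47 over the 9 genes and −0.06 over all genes tested. After TMM scaling, which moved the most, these medians were −0.35 and 0.07. By limma with Benjamini-Hochberg adjustment over all genes tested, 0 of 8 passed an adjusted p of 0.05 in either direction, against 0.0577% of all genes, or 0.0412% for a lower level in Ifnar1-SA. The 7 genes that passed were microRNA genes listed at 0 in every library of a genotype. At an unadjusted limma p under 0.05, 2 of 8 (Igfbp4 and Tcf7) were lower, against 1.68% of all genes tested. After median-of-ratios or TMM scaling 4 of 8 were (with Lef1 and Ccr7), against 1.95% and 1.51% of all genes. After quantile scaling 3 of 8 were (Tcf7, Lef1 and Igfbp4), against 1.95%. With a replicate block Igfbp4 and Dapl1 were but Tcf7 was not, against 1.72%. Only Igfbp4 had all 3 Ifnar1-SA values below all 3 WT values, a property shared by 3.8% of all genes tested. In bulk RNA, fewer cells that express a gene and less RNA of it per cell cannot be told apart.

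**Figure D1:**
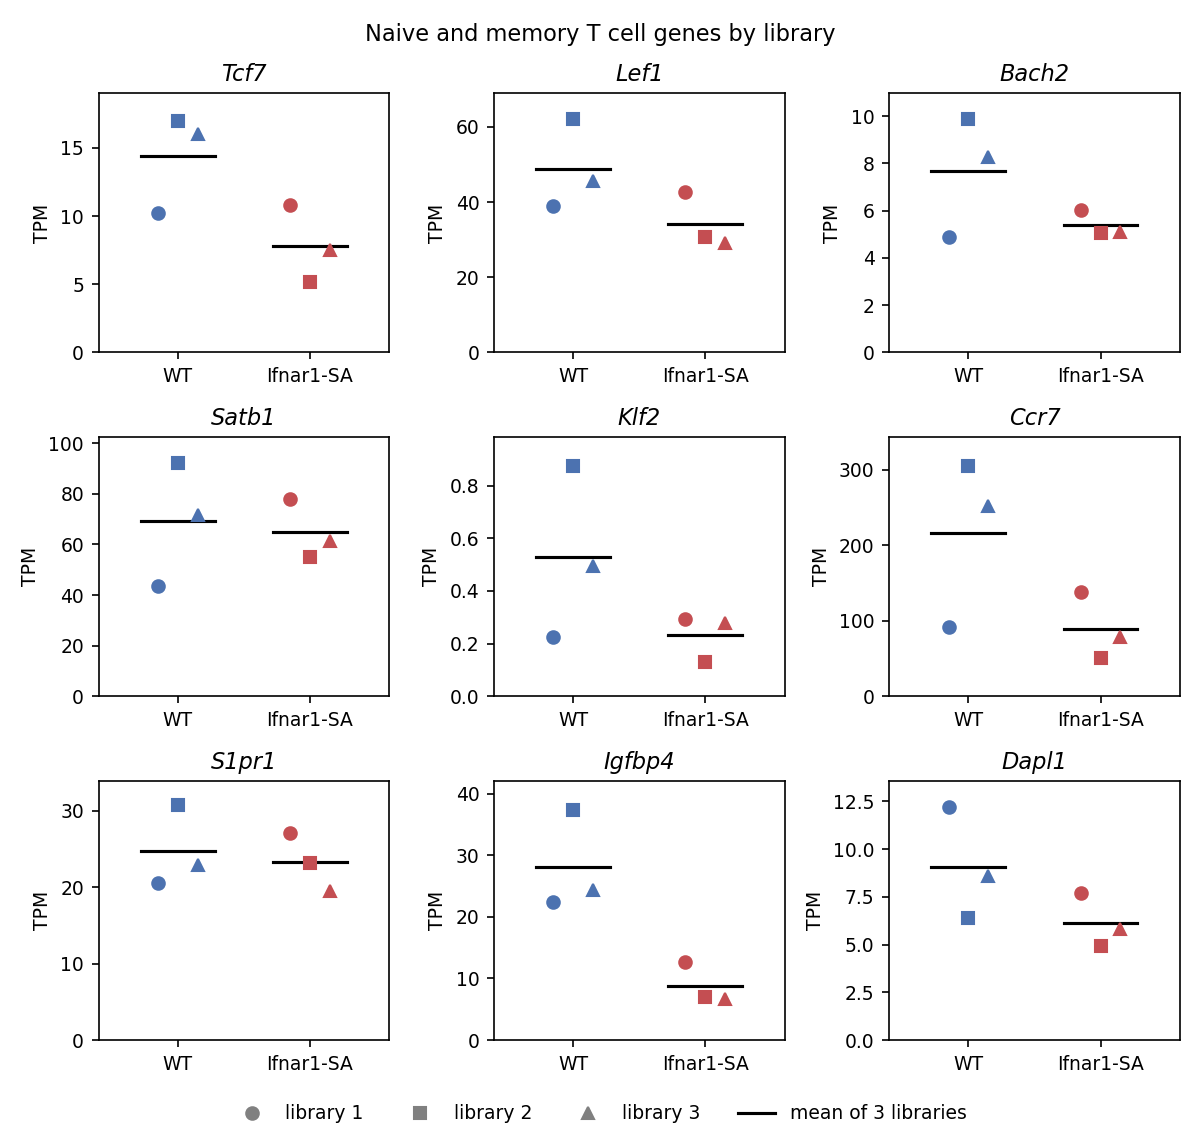
Level of each of the 9 genes in TPM (vertical axes, starting at 0) in the 3 WT and 3 Ifnar1-SA libraries; each point is a library, with its number as the marker shape, and the bar is the mean of 3. Igfbp4 is the only gene whose groups do not overlap, and for Satb1 and S1pr1 the means lie close together.

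The promoter sequences of 3 of these genes are shown first, to set Igfbp4, which had the lowest log2 difference of the 9, and the factor gene Lef1 beside Satb1, whose log2 difference lay nearest to 0. Each is the 250 bases before the transcription start on the strand of the gene, from RefSeq (GRCm38.p6), in which 7 of the 9 genes had an entry. Capitals mark CACCC, the core bound by Kruppel-like factors, or GGGTG where the match is on the opposite strand. The windows are chr11:99040994-99041243 (plus strand) for Igfbp4, chr3:131110047-131110296 (plus strand) for Lef1 and chr17:51833291-51833540 (minus strand) for Satb1.
Igfbp4: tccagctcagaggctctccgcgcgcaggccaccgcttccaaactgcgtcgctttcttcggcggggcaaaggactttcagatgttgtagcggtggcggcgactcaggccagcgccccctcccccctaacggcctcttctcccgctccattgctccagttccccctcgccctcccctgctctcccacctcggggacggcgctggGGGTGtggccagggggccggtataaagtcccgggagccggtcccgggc
Lef1: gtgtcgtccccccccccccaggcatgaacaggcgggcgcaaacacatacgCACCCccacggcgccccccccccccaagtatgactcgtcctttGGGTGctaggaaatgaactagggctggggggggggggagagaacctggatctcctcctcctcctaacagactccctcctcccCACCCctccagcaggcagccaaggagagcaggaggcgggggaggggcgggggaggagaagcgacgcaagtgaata
Satb1: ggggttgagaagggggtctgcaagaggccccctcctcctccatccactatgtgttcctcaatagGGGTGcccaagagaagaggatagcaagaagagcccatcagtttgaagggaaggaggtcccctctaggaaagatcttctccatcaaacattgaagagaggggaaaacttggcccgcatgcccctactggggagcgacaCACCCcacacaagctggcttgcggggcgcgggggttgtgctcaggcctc

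Igfbp4 held 1 match, Lef1 3 and Satb1 2, and 51.3% of 27025 promoter windows of the same length held at least 1. None of the 3 windows held the TCF/LEF motif TCAAAG (14.1% of all windows), the FOXO motif TGTTTAC (3.06%), the interferon-stimulated response element, searched as GAAA, any pair of bases and GAAA (3.05%), or the AP-1 motif TGANTCA (6.85%) on either strand. Of the 4 further genes with a RefSeq window, Tcf7 held 2 CACCC matches and Klf2 1, while Bach2 and Dapl1 held 0. Bach2 held 1 TCF/LEF match and Dapl1 1 FOXO match. The Klf2 window (chr8:72318812-72319061) reaches into the span of its gene (chr8:72319033-72321656). The Bach2 window (chr4:32417185-32417434) lies inside the span of the gene (chr4:32238804-32586108). Its match is thus not in sequence before the first base of that span. GC content was 69.2% for Igfbp4, 66.4% for Lef1 and 58.0% for Satb1, against a median of 52.0% over all windows. The matches are descriptions of sequence only.

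Tcf7 encodes TCF-1, the high-mobility-group factor that maintains naive and stem-like memory T cells (chr11:52252371-52283014, minus strand, GRCm38, a protein-coding gene). The WT libraries 1 to 3 held 10.2, 17.0 and 16 TPM, and the Ifnar1-SA libraries 1 to 3 held 10.8, 5.19 and 7.52 TPM. WT 1 lay below Ifnar1-SA 1, and otherwise every WT value was above every Ifnar1-SA value. The means were 14.4 ± 3.68 and 7.85 ± 2.84 TPM (SD, n = 3 each), a ratio of 1.83. Its log2 difference was −0.82 ± 0.29 (standard error; limma, adjusted p = 0.9997), and 2.31% of the genes tested had a lower one.

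Lef1 encodes the close relative of TCF-1 with which it overlaps in T cells (chr3:131110471-131224356, plus strand). Its level was 39.0, 62.1 and 45.6 TPM in WT 1 to 3 and 42.6, 30.7 and 29.2 TPM in Ifnar1-SA 1 to 3. Here too the overlap came from WT 1, which lay below Ifnar1-SA 1. The means were 48.9 ± 11.9 and 34.2 ± 7.31 TPM, with a log2 difference of −0.5 ± 0.23 (standard error; limma, adjusted p = 0.9997). BACH2 is a repressor that keeps effector genes closed and is required for a stable Treg pool (chr4:32238804-32586108, plus strand). Bach2 was at 4.87, 9.89 and 8.25 TPM in WT 1 to 3 and at 6.01, 5.04 and 5.08 TPM in Ifnar1-SA 1 to 3. The lowest of all 6 values was in WT 1, and the other WT libraries were above every Ifnar1-SA library. Its log2 difference was −0.4 ± 0.24 (standard error; limma, adjusted p = 0.9997).

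SATB1 organises chromatin loops in thymocytes and naive T cells and takes part in setting up the Treg lineage (chr17:51736187-51833290, minus strand). Satb1 held 43.7, 92.3 and 71.8 TPM in WT 1 to 3 against 77.9, 55.0 and 61.3 TPM in Ifnar1-SA 1 to 3. The Ifnar1-SA values lay inside the WT range. The log2 difference was −0.05, and its 95% interval ran from −0.74 to 0.64 (limma, adjusted p = 0.9997). Its sign turned with the scaling, to 0.06 after median-of-ratios and 0.1 after TMM scaling. KLF2 promotes quiescence and transcription of S1pr1 (chr8:72319033-72321656, plus strand). Klf2 was scarce, at 0.224, 0.873 and 0.493 TPM in WT 1 to 3 and 0.294, 0.129 and 0.278 TPM in Ifnar1-SA 1 to 3. The groups overlapped through WT 1, and an exact two-sided permutation test gave p = 0.3.

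Ccr7 encodes the receptor for the lymph node chemokines CCL19 and CCL21 (chr11:99144196-99155077, minus strand) and had the highest mean level of the 9 genes. The WT libraries 1 to 3 were at 91.8, 305 and 252 TPM, and Ifnar1-SA 1 to 3 were at 138, 50.9 and 78.0 TPM. WT 2 and WT 3 stood above the other 4 libraries, while WT 1 lay between Ifnar1-SA 1 and Ifnar1-SA 3. The means were 216 ± 111 and 89.0 ± 44.6 TPM (SD, n = 3 each), a ratio of 2.43. The log2 difference of −1.22 had a standard error of 0.53 and an interval from −2.46 to 0.03 (limma, adjusted p = 0.9997). It had the widest interval of the 8 genes tested.

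S1pr1, the receptor for egress from lymphoid tissue (chr3:115710433-115715072, minus strand), had levels of 20.6, 30.8 and 22.9 TPM in WT 1 to 3 and 27.1, 23.1 and 19.5 TPM in Ifnar1-SA 1 to 3. The groups were interleaved. The log2 difference was −0.08 with an interval from −0.57 to 0.4 (limma, adjusted p = 0.9997), and it was 0.02 after median-of-ratios and 0.06 after TMM scaling. The means of the migration receptors thus lay apart by different amounts, 2.43 times for Ccr7 and 1.07 times for S1pr1, a contrast that was not tested.

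Igfbp4 encodes a secreted binding protein of insulin-like growth factors whose transcript is abundant in naive T cells (chr11:99041244-99054392, plus strand). The transcript was at 22.5, 37.4 and 24.3 TPM in WT 1 to 3 and at 12.7, 7.06 and 6.64 TPM in Ifnar1-SA 1 to 3. Every WT library was above every Ifnar1-SA library, WT 1 included. The means were 28.1 ± 8.16 and 8.79 ± 3.38 TPM (SD, n = 3 each), a ratio of 3.19. On the log2 scale Igfbp4 differed by −1.59, with a standard error of 0.29 and a 95% interval from −2.28 to −0.9, and 0.832% of the genes tested had a lower one. The adjusted limma p was 0.409, so Igfbp4 did not pass the threshold over all genes, and an exact two-sided permutation test gave p = 0.1, the smallest that 3 against 3 libraries allow. A model term for the pair WT 2 and Ifnar1-SA 1, chosen after seeing the data, brought the adjusted limma p to 0.0407. That was the only setting of the 19 tried in which a gene of the 9 passed. Because the pair was picked on these data, no conclusion is drawn from it. In that fit 5.18% of all genes tested were lower at an unadjusted limma p under 0.05, against 1.68% in the main fit.

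Dapl1, a death-associated protein-like gene with high transcript levels in naive and memory T cells (chr2:59484653-59505020, plus strand), had levels of 12.2, 6.4 and 8.58 TPM in WT 1 to 3 and 7.7, 4.94 and 5.83 TPM in Ifnar1-SA 1 to 3. WT 1 was the highest library and WT 2 was below Ifnar1-SA 1, the reverse of the order found for the other 8 genes within WT. For Dapl1 the log2 difference was −0.47, its standard error 0.25 (limma, adjusted p = 0.9997).

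**Figure D2:**
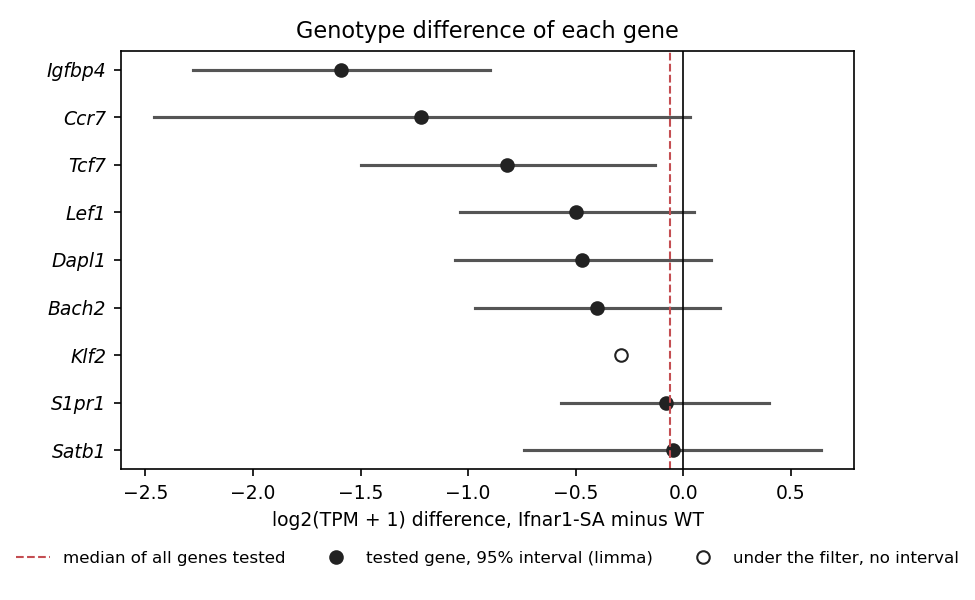
Log2(TPM + 1) difference, Ifnar1-SA minus WT (horizontal axis), of the 9 genes, with the 95% interval from limma; the open point is Klf2, which was under the filter, and the dashed line is the median of all genes tested. Only the intervals of Igfbp4 and Tcf7 lie wholly below 0, before any adjustment, and those of S1pr1 and Satb1 spread to both sides of it.

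The same libraries were high or low for most of the 9 genes. Among the WT libraries, WT 2 held the highest value of 8 genes and WT 1 the lowest of 8, Dapl1 being the exception to both. Ifnar1-SA 1 held the highest Ifnar1-SA value of all 9, and the lowest was in Ifnar1-SA 2 for 6 and in Ifnar1-SA 3 for 3. Part of this order was common to the transcriptome, since WT 2 was highest in WT for 58.0% of all genes tested, WT 1 lowest for 40.4% and Ifnar1-SA 1 highest for 72.4%. After median-of-ratios scaling, which divided WT 1 to 3 by 0.916, 1.285 and 0.9882 and Ifnar1-SA 1 to 3 by 1.153, 0.9279 and 0.8723, WT 2 was highest for 4 of the 9 and Ifnar1-SA 1 for 4. WT 1 was still the lowest WT library for 8 of 9, against 24.4% of all genes, and Ifnar1-SA 2 the lowest Ifnar1-SA library for 7 of 9, against 37.5%. The part that library composition or depth played in these orders was not tested.

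**Figure D3:**
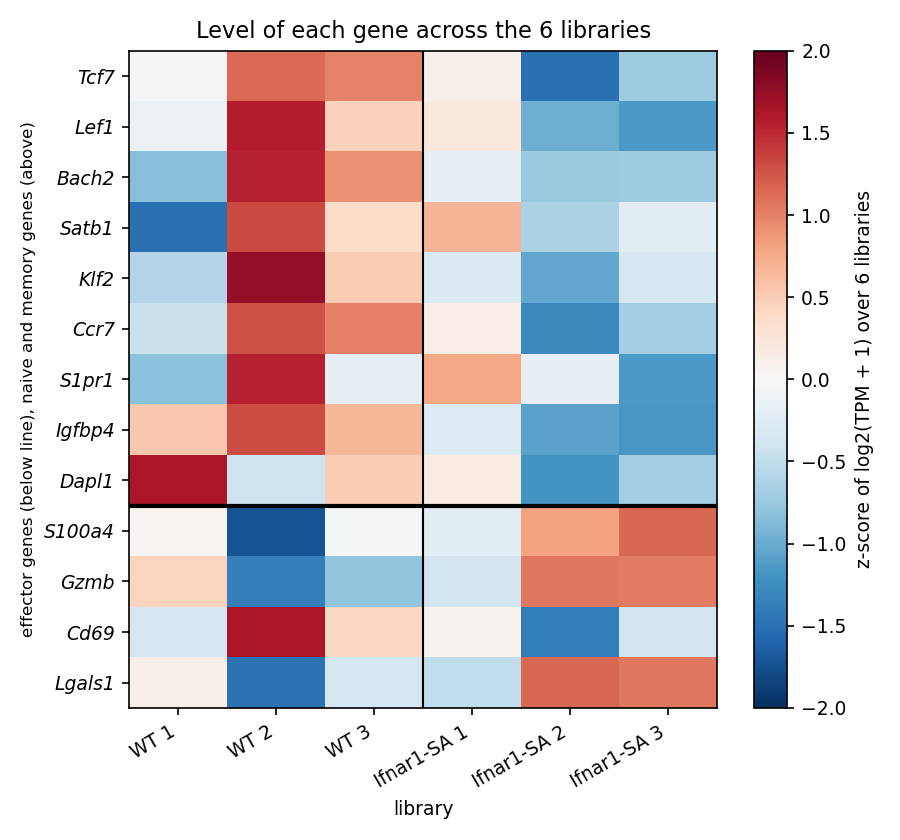
Z-score of log2(TPM + 1) over the 6 libraries (colour) for the 9 genes, above the thick line, and the 4 effector genes of smallest p, below it; columns are libraries, with WT to the left of the thin line. WT 2 and WT 3 are mostly above 0 for the 9 genes and Ifnar1-SA 2 and 3 below 0, while WT 1 varies from the lowest library (Bach2, Satb1) to the highest (Dapl1). S100a4, Gzmb and Lgals1 run the opposite way and Cd69 does not. A choice by smallest p favours genes that differ by genotype. Of the 24 effector and activation genes tested, 16 had a higher mean in Ifnar1-SA and 8 a lower one. A lower mean was found for 62.9% of all genes tested.

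The mean z-score of the 8 genes tested put the libraries in the order WT 2 (1.16), WT 3 (0.59), Ifnar1-SA 1 (0.2), WT 1 (−0.2), Ifnar1-SA 3 (−0.81) and Ifnar1-SA 2 (−0.94). WT 1 was below Ifnar1-SA 1 for 7 of the 9 genes, as it was for 69.3% of all genes tested. With the median-of-ratios values Tcf7 and Lef1 separated by genotype. Scaled Tcf7 was 11.1, 13.2 and 16.2 in WT 1 to 3 and 9.41, 5.6 and 8.62 in Ifnar1-SA 1 to 3. Scaled Lef1 was 42.5, 48.3 and 46.2 in WT 1 to 3 and 36.9, 33.1 and 33.5 in Ifnar1-SA 1 to 3. Both groups of values were clear of each other, and the spread within each genotype was narrower than in the unscaled TPM. With Igfbp4, 3 of the 9 genes were then lower without overlap, after median-of-ratios or TMM scaling alike, against 4.21% and 3.17% of all genes. After quantile scaling Tcf7 and Igfbp4 were, against 4.58% of all genes, and Lef1 overlapped. Without WT 1, 6 of the 9 were (Tcf7, Lef1, Bach2, Klf2, Ccr7 and Igfbp4), where 14.7% of all genes were. Without Ifnar1-SA 1, 5 of the 9 were (Tcf7, Lef1, Ccr7, Igfbp4 and Dapl1), where 23.0% of all genes were.

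The 5 genes outside the 9 that follow had the library pattern closest to the mean of the tested ones, by the mean absolute difference of z-scores over the 6 libraries among 7581 genes of at least 5 TPM. They were Rab8b, a GTPase of membrane traffic (0.142), Gosr1, a Golgi SNARE (0.148), Hk1, a hexokinase (0.148), Nfe2l2, a regulator of the response to oxidative stress (0.149), and Ak4, a mitochondrial adenylate kinase (0.151). Nfe2l2 was at 10.8, 19.4 and 14.7 TPM in WT 1 to 3 and 12.3, 8.0 and 8.58 TPM in Ifnar1-SA 1 to 3. In the deposited values WT 1 lay below Ifnar1-SA 1 for each of the 5, so that none separated the genotypes. After median-of-ratios, TMM or quantile scaling 4 of the 5 (Gosr1, Hk1, Nfe2l2 and Ak4) were lower in Ifnar1-SA without overlap, as Tcf7 was. The 5 were picked for their likeness to the tested naive and memory genes, so their separation follows in part from the choice. Of all genes tested, 4.21%, 3.17% and 4.58% were lower without overlap after median-of-ratios, TMM and quantile scaling.

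A list of 30 further naive and memory T cell genes held 24 that could be tested, of which 0 passed the adjusted threshold. Their median log2 difference was −0.17, with 17 lower in mean, where 62.9% of all genes tested were, and 7 higher. After median-of-ratios scaling 13 were lower, where 42.5% of all genes were, and 11 higher. At an unadjusted limma p under 0.05, 3 were lower and 1 was higher, against 1.68% and 1.44% of all genes tested. Slamf6, a co-receptor of stem-like memory cells, was at 2.43 ± 1.27 TPM in WT against 0.808 ± 0.341 TPM in Ifnar1-SA without overlap (SD, n = 3 each). St8sia6, a sialyltransferase gene, was at 3.24 ± 0.948 and 1.94 ± 0.296 TPM, without overlap in the deposited values but with overlap after each scaling. Ly6c1, a surface antigen gene, went the other way, at 993 ± 258 TPM in WT against 1650 ± 580 TPM in Ifnar1-SA.

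Of 25 effector and activation genes 24 were tested, and 0 passed the adjusted threshold or an unadjusted limma p of 0.05. Their median log2 difference was 0.13 (0.23 after median-of-ratios scaling), with 16 higher and 8 lower in mean, where 62.9% of all genes tested were lower. After median-of-ratios scaling 18 were higher and 6 lower, where 42.5% of all genes were lower. Gzmb, the gene of the cytotoxic protease granzyme B, was at 1165, 437 and 596 TPM in WT 1 to 3 and 746, 1619 and 1595 TPM in Ifnar1-SA 1 to 3. Its values were low where Ccr7 was high, in WT 2 and WT 3, and high in Ifnar1-SA 2 and 3. S100a4, a calcium-binding protein gene of effector and memory cells, was at 13.5 ± 6.44 TPM in WT against 25.1 ± 9.17 TPM in Ifnar1-SA. Lgals1, the galectin-1 gene, was at 1879 ± 446 and 2683 ± 691 TPM. Cd69, whose protein holds S1PR1 inside activated cells, was at 11.9, 26.6 and 16.3 TPM in WT 1 to 3 and 14.1, 7.62 and 11.7 TPM in Ifnar1-SA 1 to 3, a library order like that of the naive genes.

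Genes that work with the 5 transcription factors had median log2 differences between −0.19 and −0.07, of which those of the TCF and LEF, Kruppel-like and FOXO lists were 0.07, 0.01 and 0.04 after TMM scaling. Of 20 genes of the TCF and LEF factors, beta-catenin and Groucho corepressors, 12 were tested, with a median log2 difference of −0.07. Ctnnb1, the beta-catenin gene, was at 28.6 ± 2.53 TPM in WT against 24.4 ± 6.36 TPM in Ifnar1-SA. All 6 tested relatives of BACH2 and SATB1 of 8 listed had lower means in Ifnar1-SA, as did 62.9% of all genes tested. After each scaling 5 of the 6 did, against 35.2% to 49.3% of all genes. The median of the 6 was −0.19 in the deposited values. The largest difference there was that of Nfe2l2 (−0.57, limma, adjusted p = 0.9997). Of 16 Kruppel-like factor genes 7 were tested, with a median of −0.12. Klf7, a member of that family, was at 18.5, 30 and 33.5 TPM in WT 1 to 3 and at 13.1, 12.9 and 10.7 TPM in Ifnar1-SA 1 to 3. All WT values were above all Ifnar1-SA values, also after each scaling, with a log2 difference of −1.06 ± 0.24 (standard error; limma, adjusted p = 0.825). Klf6, the most abundant of the tested family, was at 48.8 ± 5.42 and 49.3 ± 7.04 TPM. In the FOXO pathway and its PI3K, AKT and mTOR inputs, which act upstream of Klf2 and Ccr7, 14 of 16 genes were tested. Their median was −0.09, with 11 lower in mean, against 62.9% of all genes tested, and 0 at an unadjusted limma p under 0.05. After median-of-ratios scaling 7 were lower in mean, against 42.5% of all genes.

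Among 19 genes of sphingosine-1-phosphate production, receptors and signalling, 14 were tested with a median log2 difference of −0.12 (0.01 after TMM scaling). S1pr4, a further receptor of that lipid on T cells, and Arrb2, an arrestin gene, were lower without overlap in the deposited values and overlapped after median-of-ratios or TMM scaling. Arrb2 was at 14.0 ± 0.599 TPM in WT against 12.2 ± 0.413 TPM in Ifnar1-SA. Sphk1, a kinase that makes the lipid, was at 1.54 ± 0.893 and 0.768 ± 0.163 TPM. Of 16 lymphoid homing receptor and ligand genes 9 were tested, with a median log2 difference of −0.03 (0.07 after TMM scaling), and 0 passed the adjusted threshold of limma. Itgal, the gene of the LFA-1 alpha chain, was at 28.5 ± 4.33 TPM in WT against 33.1 ± 8.7 TPM in Ifnar1-SA.

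In the insulin-like growth factor system, to which Igfbp4 belongs, 5 of 18 listed genes were tested with a median log2 difference of 0.04. Igfbp7, a related secreted binding protein gene, was at 8.29, 2.41 and 3.66 TPM in WT 1 to 3 and 8.54, 14.9 and 17.5 TPM in Ifnar1-SA 1 to 3. Every Ifnar1-SA value was above every WT value, the opposite direction to Igfbp4, but WT 1 and Ifnar1-SA 1 were close and overlapped after each scaling. Its log2 difference was 1.42 ± 0.41 (standard error; limma, adjusted p = 0.9997). Stc2, whose product limits the protease that cleaves IGFBP4, was at 73.5 ± 23.1 and 51.7 ± 21.7 TPM. In the death-associated protein family of Dapl1, 4 of 5 were tested, Dapl1 included, with a median log2 difference of −0.23 (−0.12 after TMM scaling). All 4 had a lower mean in Ifnar1-SA, and 2 did after TMM scaling, against 62.9% and 35.2% of all genes tested. Dapk2 was at 2.17 ± 1.47 TPM in WT against 1.3 ± 0.285 TPM in Ifnar1-SA, and Dap at 98.1 ± 13.6 and 94.3 ± 2.74 TPM.

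Igfbp4 and Ccr7 lie 89.8 kb apart on chromosome 11. Within 200 kb on either side of the pair, 15 genes were measured and 9 tested. Tns4, which lies between them, was at 1.3 ± 0.357 TPM in WT against 1.17 ± 0.196 TPM in Ifnar1-SA (log2 difference −0.07). Top2a, the gene of a DNA topoisomerase of dividing cells next to Igfbp4, had a log2 difference of −0.04, and Smarce1, a chromatin remodeller subunit gene beyond Ccr7, one of −0.12. Of the tested genes other than Igfbp4, only Krt222 was lower without overlap, at 1.49 ± 0.106 and 1.27 ± 0.0747 TPM, a log2 difference of −0.14.

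**Figure D4:**
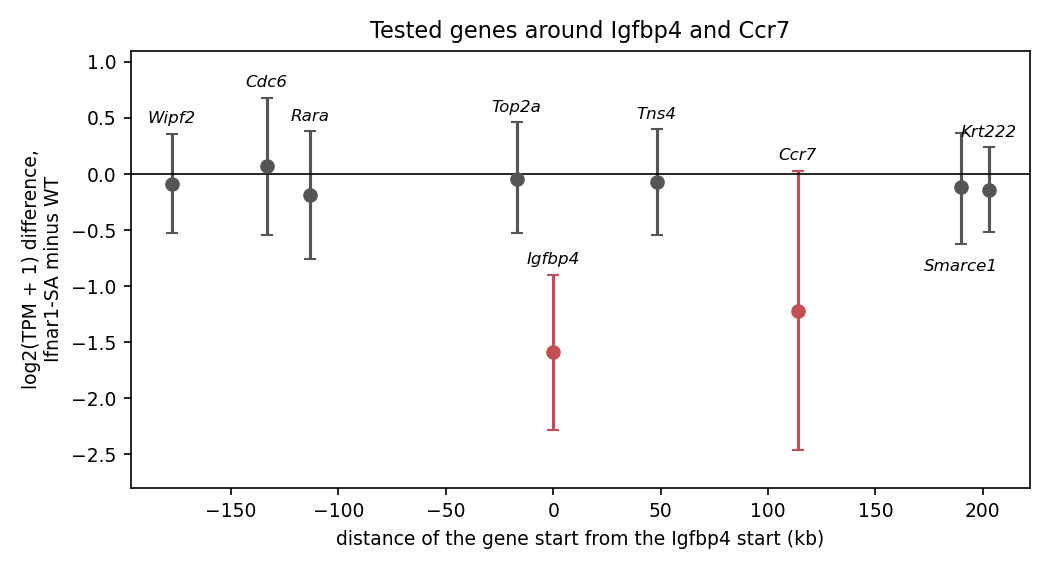
Log2(TPM + 1) difference, Ifnar1-SA minus WT, with its 95% limma interval (vertical axis), of the 9 tested genes around Igfbp4 and Ccr7, by the distance of the gene's transcription start from that of Igfbp4 in kb. Igfbp4 and Ccr7 (red) lie at −1.59 and −1.22, and the 7 others lie between −0.19 and 0.07.

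The labelled cell type was set against marker genes. All 9 CD4 T cell identity genes were at 90.2 TPM or more in every library, and their sum was 3022 to 3356 TPM in WT and 3284 to 3739 TPM in Ifnar1-SA. Foxp3, which defines Treg cells, was at only 0.276 to 1.82 TPM in the 6 libraries, against the label, so Treg is used here as the label's name. At the same time the Treg-associated genes Ctla4 (575 ± 111 and 805 ± 61.7 TPM) and Il2ra (390 ± 34.8 and 437 ± 12.7 TPM) were abundant, as in other activated T cells. The summed CD8 T and NK cell markers (8 genes) were at 51.3 to 60.0 TPM in WT and 83.3 to 129 TPM in Ifnar1-SA, mostly Gzma, and 4 of the 8 were under 1 TPM in every library. Of the CD8 chain genes, Cd8a was at no more than 4.26 TPM and Cd8b1 at 13.1 ± 2.68 TPM in WT against 12.1 ± 3.17 TPM in Ifnar1-SA. B cell markers (7 genes measured) summed to 7.72 to 18.2 and 8.63 to 12.8 TPM, myeloid and dendritic markers (10 genes) to 11.3 to 20.2 and 13.0 to 16.3 TPM, and stromal and endothelial markers (7 genes) to 10.3 to 14.8 and 18.8 to 23.8 TPM. Those of the stromal list were mostly Pdpn, which T cells also express, and erythroid and platelet markers (7 genes) did not exceed 2.19 TPM in sum. The part of these cells in the results was not tested. Of 8 proliferation genes 7 had a higher mean in Ifnar1-SA and 1 a lower one, where 62.9% of all genes tested had a lower one. After each scaling all 8 had a higher mean, where 35.2% to 49.3% of all genes had a lower one. Their median log2 difference was 0.15 in the deposited values, and 0 reached an unadjusted limma p of 0.05. Of 14 type I interferon-stimulated genes 9 were higher without overlap, where 1.97% of all genes were, with a median log2 difference of 0.99. Ifnar1 itself was at 24.0, 41.9 and 27.3 TPM in WT 1 to 3 and 28, 25.3 and 21.8 TPM in Ifnar1-SA 1 to 3 (limma, adjusted p = 0.9997), and a replaced amino acid leaves no mark in TPM. The Y-linked Eif2s3y was listed at 0 in WT 3 and at 10.9 TPM or more in the other 5 libraries. What sex contributed to the differences was not tested.

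**Figure D5:**
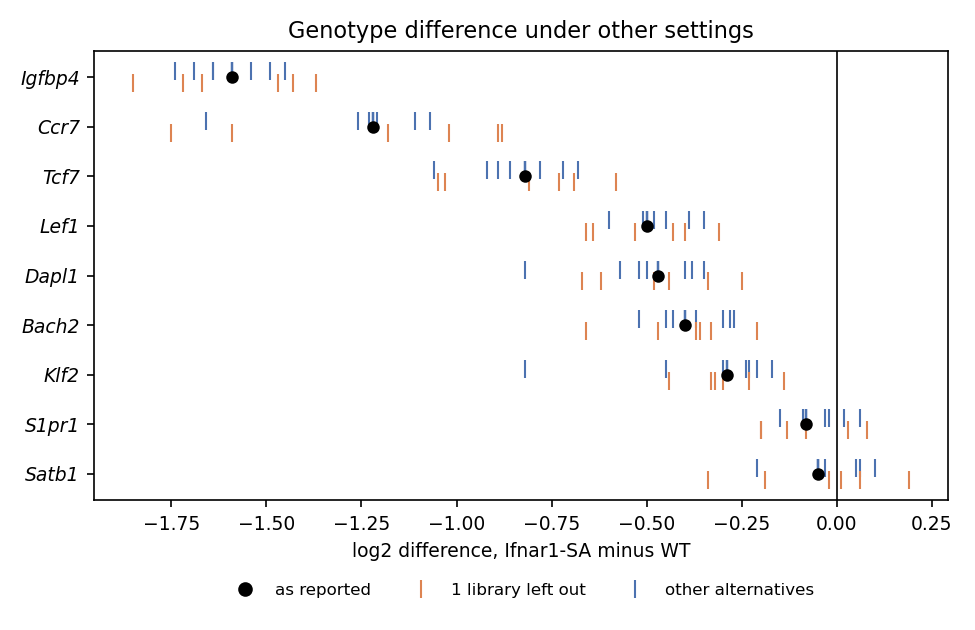
Log2 difference, Ifnar1-SA minus WT (horizontal axis), of each of the 9 genes as reported (black point), with 1 library left out (orange ticks) and under the other alternatives (blue ticks). Igfbp4 stays between −1.85 and −1.37 and Ccr7 between −1.75 and −0.88, whereas S1pr1 and Satb1 lie on both sides of 0.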

How the data were processed

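Gene expression was measured by mRNA sequencing in 6 libraries, 3 WT and 3 Ifnar1-SA, grouped by their titles. The table the authors deposited holds gene-level TPM and per the submitters' processing notes was made with Salmon and the builds mm10 and GRCm38 of the mouse genome. Its version, annotation and read filters are not stated. TPM keeps no sequencing depth, so no counting interval could be given, and an abundant gene depresses the TPM of the rest of its library. Between 21925 and 22958 genes were above 0 in a library, and libraries with identical values numbered 0.

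Values were tested as log2(TPM + 1), a pseudocount of 1, for genes whose mean reached 1 TPM, with limma 3.58.1 in R 4.3.3 (intensity trend, two-sided, Benjamini-Hochberg adjustment over the 12141 genes tested, threshold 0.05, no replicate block). Differences on this scale understate those of low genes. Ratios are of mean TPM, and values are mean ± SD over 3 libraries. No model of read numbers was used. Klf2 was tested by an exact permutation test. The 9 genes and all lists were chosen with earlier results of these data known. By rule, the 9 genes, Ifnar1, from each list up to 4 genes of smallest p and the most abundant one, and the 5 genes most like the tested members were open to naming; S1pr4, Foxp3, Eif2s3y and the neighbours of Igfbp4 were added after their values were seen. A gene of the lists is not reported here. Positions are from GENCODE M21 on GRCm38, matched by symbol.

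The alternatives were pseudocounts of 0.5 and 0.1, no filter or a minimum mean of 5 TPM, scaling by quantiles, TMM or median-of-ratios, array weights, robust empirical Bayes, a fit without intensity trend, a replicate block, leaving out each library, leaving out WT 2 and Ifnar1-SA 1 together (a pair known from earlier work on the table) and, chosen after seeing the data, a model term for that pair. The procedure was tested on simulated data. Python 3.11.15, pandas 2.3.3, numpy 2.4.6 and matplotlib 3.10.9 made the tables and figures.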

Additional observations from a re-analysis of the deposited data

How the results depend on the processing

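Of the 9 genes, 0 passed the threshold in 18 of 19 alternatives, and 1 (Igfbp4) with the model term for WT 2 and Ifnar1-SA 1; that pair was picked on these data. The median difference of the 9 kept its direction, between −0.64 and −0.31. Igfbp4 was between −1.85 and −1.37 on the log2 scale, with adjusted limma p between 0.0407 and 0.9995. Satb1 (−0.34 to 0.19 with 1 library left out) was above 0 with median-of-ratios (0.06) and TMM scaling (0.1), without WT 2 (0.19), WT 3 (0.01) or Ifnar1-SA 2 (0.06), and without WT 2 and Ifnar1-SA 1 together (0.05). S1pr1 (−0.2 to 0.08 with 1 library left out) was above 0 with median-of-ratios (0.02) and TMM scaling (0.06), and without WT 2 (0.08) or Ifnar1-SA 3 (0.03). The other 7 kept their direction in every alternative run. The number of the 9 lower without overlap, 1 as reported, was 3 under TMM or median-of-ratios scaling (3.17% and 4.21% of all genes) and 2 under quantile scaling (4.58%). It was between 1 and 6 with 1 library left out: 6 without WT 1 (14.7%), 5 without Ifnar1-SA 1 (23.0%) and 2 without WT 2 (5.12%). It was 5 without WT 2 and Ifnar1-SA 1 together (24.8%), so the share of all genes rose as well in these. The number at an unadjusted limma p under 0.05, 2 as reported, was between 1 and 6. It was lowest without WT 3 (0.954% of all genes), Ifnar1-SA 2 (0.812%) or Ifnar1-SA 3 (0.71%). It was highest with array weights (7.64%), and 5 without WT 1 (4.45%). Over all genes, the number past the threshold, 7 as reported, was 14 and 15 with pseudocounts of 0.5 and 0.1, 1 with a mean of at least 5 TPM, 12 with robust empirical Bayes, 12 with array weights, between 15 and 28 with 1 library left out and 0 without WT 2 and Ifnar1-SA 1. The cause was not tested. The number of reads behind each value is unknown, and 3 libraries a genotype limit the precision.

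The replicate numbers in the titles are not said to pair the libraries, so the libraries were not treated as pairs. Across genes the deviations of same-numbered libraries had Pearson's r of −0.112, −0.106 and 0.151. These r values were taken without scaling, so library composition enters them and they cannot show whether the numbers pair the libraries. Only WT 3 and Ifnar1-SA 3 correlated best with their own number. With the replicate block, 0 of the 9 genes and 0 of all genes passed, and Igfbp4 had an adjusted limma p of 0.9995.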
